A study of Mus musculus with 2 samples.

Results

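Basal progenitors (BPs) of the pallium were picked out of a droplet scRNAseq library of the whole mouse telencephalic vesicle, in which each captured transcript carries a unique molecular identifier (UMI). A cell counted as a BP when its barcode held at least 2500 UMIs, a mitochondrial share under 6%, at least 2 UMIs of *Eomes*, at least 1 of *Neurog2* and none of *Trp73*, *Dlx1* or *Dlx2*. Members were thus selected on measured values, the UMIs of these 5 genes. The gate held 628 cells, 5.46% of the 11498 cells past the depth and mitochondrial limits and 628 of the 20110 barcodes in both libraries of the series. The library came from wild-type C57BL/6J embryos labelled E12 (E11.5 to E12 in the study's text), with 3 embryos of 2 litters pooled, so that cells could not be traced to an embryo. A second library, from explants around the septum of 12 embryos of 4 litters at E11.5 and E12.5, was labelled wild-type but, per the methods, pooled PGKCre;Rosa26YFP embryos at the earlier stage and Dbx1Cre;Rosa26tdTomato embryos at the later one. PGKCre is driven by a ubiquitous promoter and Dbx1Cre by the *Dbx1* locus. Each tissue is 1 library, so no test between groups of cells was run, and every interval given here covers counting error only.

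BPs, also called intermediate progenitors, arise from apical progenitors (APs) that line the ventricle, lose their apical attachment and divide away from the surface, mostly to make glutamatergic neurons. *Eomes* (Tbr2) is the T-box transcription factor by which they are recognised, and *Neurog2* is a proneural bHLH factor that starts neuronal differentiation and switches on Notch ligands. Through Notch receptors those ligands hold neighbouring cells in the AP state by way of the Hes repressors. *Trp73* marks Cajal-Retzius cells of medial origin, and *Dlx1* and *Dlx2* mark subpallial progenitors and GABAergic neurons.

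In GRCm38, *Eomes* (ENSMUSG00000032446) spans chr9:118478212-118486132 on the plus strand and *Neurog2* (ENSMUSG00000027967) chr3:127633135-127635631 on the plus strand. *Neurod4* (ENSMUSG00000048015), a bHLH factor downstream of the neurogenins, spans chr10:130268152-130280240 on the minus strand. *Gadd45g* (ENSMUSG00000021453), a stress-response gene that slows the cell cycle, spans chr13:51846678-51848468 on the plus strand.

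Of 10 genes of the gate, of the markers or high in BPs whose promoter windows were searched for an E-box of the kind bHLH factors bind, 5 had one. A window of 300 bases is shown for 4 of these, as examples that hold the motif. They run from 250 bases before to 50 after the start given by RefSeq (GRCm38.p6), 5′ to 3′ on the strand of the gene, and capitals mark CAGCTG, which reads the same on both strands.
*Neurod4* (chr10:130280089-130280388, minus strand; the CAGCTG starts 4 bases past the start site): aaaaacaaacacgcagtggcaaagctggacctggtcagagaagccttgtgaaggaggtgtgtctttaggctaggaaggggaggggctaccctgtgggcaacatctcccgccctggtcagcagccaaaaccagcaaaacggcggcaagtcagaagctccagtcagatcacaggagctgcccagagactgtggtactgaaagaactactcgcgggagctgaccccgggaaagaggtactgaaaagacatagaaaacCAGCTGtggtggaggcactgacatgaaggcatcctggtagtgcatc
*Gadd45g* (chr13:51846425-51846724, plus strand; 55 bases before): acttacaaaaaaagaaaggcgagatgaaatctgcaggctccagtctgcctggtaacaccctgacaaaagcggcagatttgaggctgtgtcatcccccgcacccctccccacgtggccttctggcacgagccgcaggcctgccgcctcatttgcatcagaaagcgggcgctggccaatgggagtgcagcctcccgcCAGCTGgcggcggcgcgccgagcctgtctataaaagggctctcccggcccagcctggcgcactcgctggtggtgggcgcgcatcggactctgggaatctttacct
*Dll3* (chr7:28301736-28302035, minus strand; 7 bases before): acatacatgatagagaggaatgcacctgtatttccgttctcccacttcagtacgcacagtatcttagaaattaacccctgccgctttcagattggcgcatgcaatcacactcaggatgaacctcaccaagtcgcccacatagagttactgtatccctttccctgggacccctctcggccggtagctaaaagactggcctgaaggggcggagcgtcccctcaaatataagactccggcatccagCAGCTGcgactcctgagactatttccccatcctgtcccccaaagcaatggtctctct
*Hes6* (chr1:91413989-91414288, minus strand; 171 bases before): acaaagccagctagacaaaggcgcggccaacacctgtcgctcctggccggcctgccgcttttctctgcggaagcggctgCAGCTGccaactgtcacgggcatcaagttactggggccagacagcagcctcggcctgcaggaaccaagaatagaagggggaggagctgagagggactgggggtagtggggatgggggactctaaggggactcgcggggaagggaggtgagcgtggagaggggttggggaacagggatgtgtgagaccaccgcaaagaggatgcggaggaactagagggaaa
Neither CAGCTG nor CAGATG, searched on both strands, occurs in the windows of *Eomes*, *Neurog2*, *Neurod1*, *Neurog1* or *Prmt8*, or in the window of a second start of *Neurod4*. Both windows of *Gmnc* hold one of them. In all, 7 of 14 windows searched hold at least 1. Over all 32851 promoter windows of this length, 16.3% hold CAGCTG, 17.2% CAGATG and 30.6% at least 1 of these. A match of these letters is a description of the window and shows no binding.

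Members held 2 to 34 *Eomes* UMIs (median 5) and 1 to 48 *Neurog2* UMIs (median 4). *Gadd45g* was seen in 93.3% of members (0 to 61 UMIs, median 7), and *Neurod4* in 149 cells or 23.7% (0 to 8 UMIs, median 0). Among 558 cells of a blood and vessel gate the shares were 30.3% for *Gadd45g* and 0.717% for *Neurod4*, at a median depth of 7150 UMIs against 10054.5 in BPs. The markers named for this cell type were thus present, *Gadd45g* in nearly every cell and *Neurod4* in a minority. Thinned to 2500 UMIs per cell, *Gadd45g* was seen in 65.4% of BPs and 11.1% of the blood and vessel gate, and whether the latter is free RNA or expression was not tested. Both *Eomes* and *Neurog2* limits sat within a range of values rather than in a gap. The 105 members with exactly 2 *Eomes* UMIs had 370 CPM (UMIs of a gene per 1000000 UMIs) of *Gadd45g* and 9.73 CPM of *Neurod4*, and the 197 cells just outside, with 1 *Eomes* UMI, had 203 and 4.18 CPM. At the *Neurog2* limit, the 127 members with exactly 1 UMI had 407 CPM of *Gadd45g* and 25.0 CPM of *Neurod4*. The 278 cells with *Eomes* but no *Neurog2* had 255 and 4.76 CPM. *Neurod1* went the other way at this limit, with 208 CPM inside and 234 CPM outside. Of 775 cells that met both positive conditions, 58 were set aside for *Trp73* and 93 for *Dlx1* or *Dlx2*, 4 of them for both.

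Depth was uneven among BPs. A member held 3664 to 164266 UMIs (median 10054.5), and all other cells a median of 9891.5. The 89 members with over 30000 UMIs held 51.2% of the UMIs of all members, and Scrublet, a doublet caller, marked 12.4% of members against 6.15% of other cells. Sums of UMIs are therefore led by few deep cells, and some results below are also given with every cell weighted equally (the mean of each cell's CPM). The part of doublets in the results was not tested beyond leaving out the cells the caller marked.

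**Figure D1:**
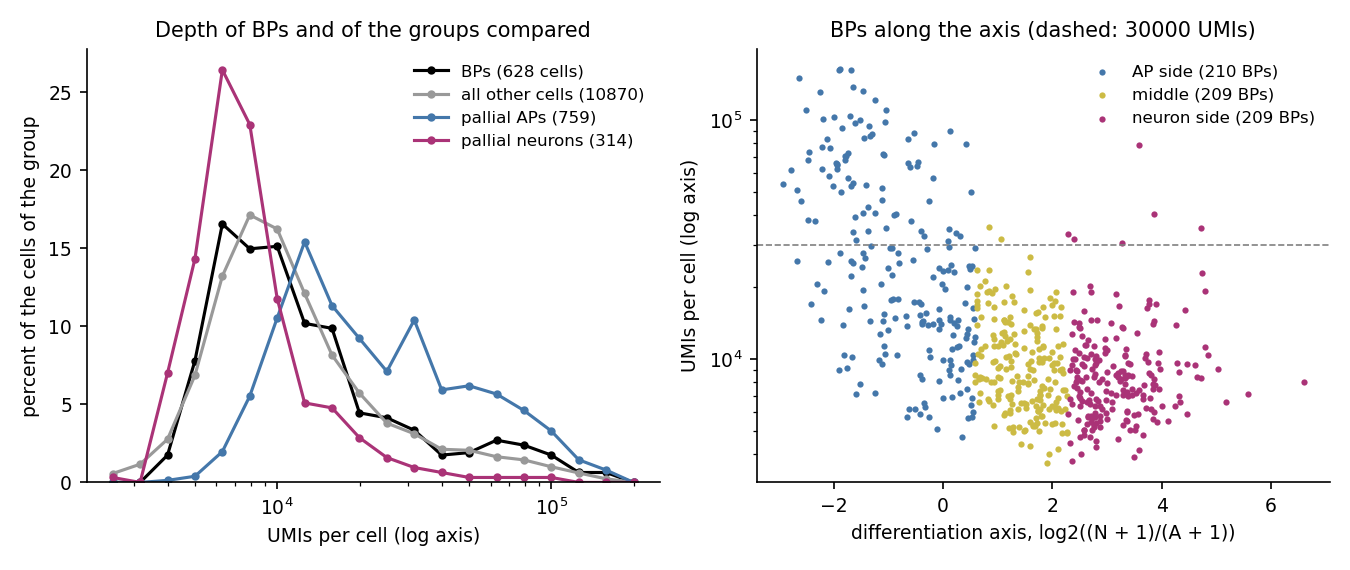
Left, percent of the cells of each group (vertical axis) by UMIs per cell (horizontal log axis) for BPs, all other cells, pallial APs and pallial neurons. Right, each point is 1 BP by its place on a differentiation axis (horizontal, log2 scale, A and N being its UMIs of AP and neuron genes) and its UMIs (vertical log axis); the deep cells lie mostly on the AP side, where the median was 23472 UMIs against 9005 in the middle and 8119 on the neuron side.

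To ask what sets BPs apart from the rest of the vesicle, summed UMIs of BPs and of the 10870 other cells were scaled to CPM and compared gene by gene. Of 9180 genes with a mean of at least 10 CPM over both groups, 209 (2.28%) were at least 2-fold higher in BPs and 127 (1.38%) at least 2-fold lower. Since the same cells and genes were used to choose the members, these ratios describe the gate and test nothing. With every cell weighted equally 324 of 9088 genes (3.57%) were higher and 328 (3.61%) lower. The median log2 ratio over all genes was -8.18e-06.

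*Neurod4* had the highest ratio (20.8 against 0.802 CPM, 26.0-fold, 95% counting interval 21.1 to 32.1). Other transcription factors among the 20 highest were *Ebf2* (361 against 36.0 CPM, 10.0-fold), an early B-cell factor of migrating neurons, *Nhlh1* (9.54-fold) and *Nhlh2* (7.93-fold), bHLH genes of newborn neurons, and *Neurod1* (8.95-fold, 8.37 to 9.56). *Neurog1*, the partner of *Neurog2*, was 7.83-fold higher, *Ebf3* 7.23-fold and the homeobox gene *Uncx* 8.02-fold. Genes that are not transcription factors made up the rest of the 20. *Prmt8*, an arginine methyltransferase of neural tissue, had the next highest ratio after *Neurod4* (14.0-fold) and was seen in 70.9% of BPs, 7.27% of other cells and 1.79% of the blood and vessel gate. *Clvs1*, which binds lipids of endosomes, and *Rbfox3*, the splicing factor known as NeuN, were each 9.30-fold higher. Others were *Ppp1r14a* (8.63-fold), *Lypd6b* (7.90-fold), *Plcxd2* (7.18-fold), *Wscd2* (6.76-fold), the tetraspanin *Tspan11* (6.44-fold), the glycosyltransferase *Galnt18* (6.31-fold), the rhomboid-like *Rhbdl3* (6.26-fold), the calcium channel subunit *Cacna2d1* (6.16-fold) and the unnamed 4930438E09Rik (8.92-fold).

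The list of 22 basal progenitor genes had 21 members past the level filter, of which 16 were higher and none lower, with a median log2 ratio of 2.05. *Insm1*, a zinc-finger factor needed for BPs to leave the ventricular surface, was 4.77-fold higher (4.53 to 5.03), *Gadd45g* 4.39-fold (465 against 106 CPM) and *Elavl4*, a neuronal RNA-binding protein, 4.79-fold. *Sstr2*, the somatostatin receptor, stayed under the filter on summed UMIs and was 10.3-fold higher (16.4 CPM in BPs). Because this list was chosen with such cells in view, its count is a check of the label and not independent evidence.

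**Figure D2:**
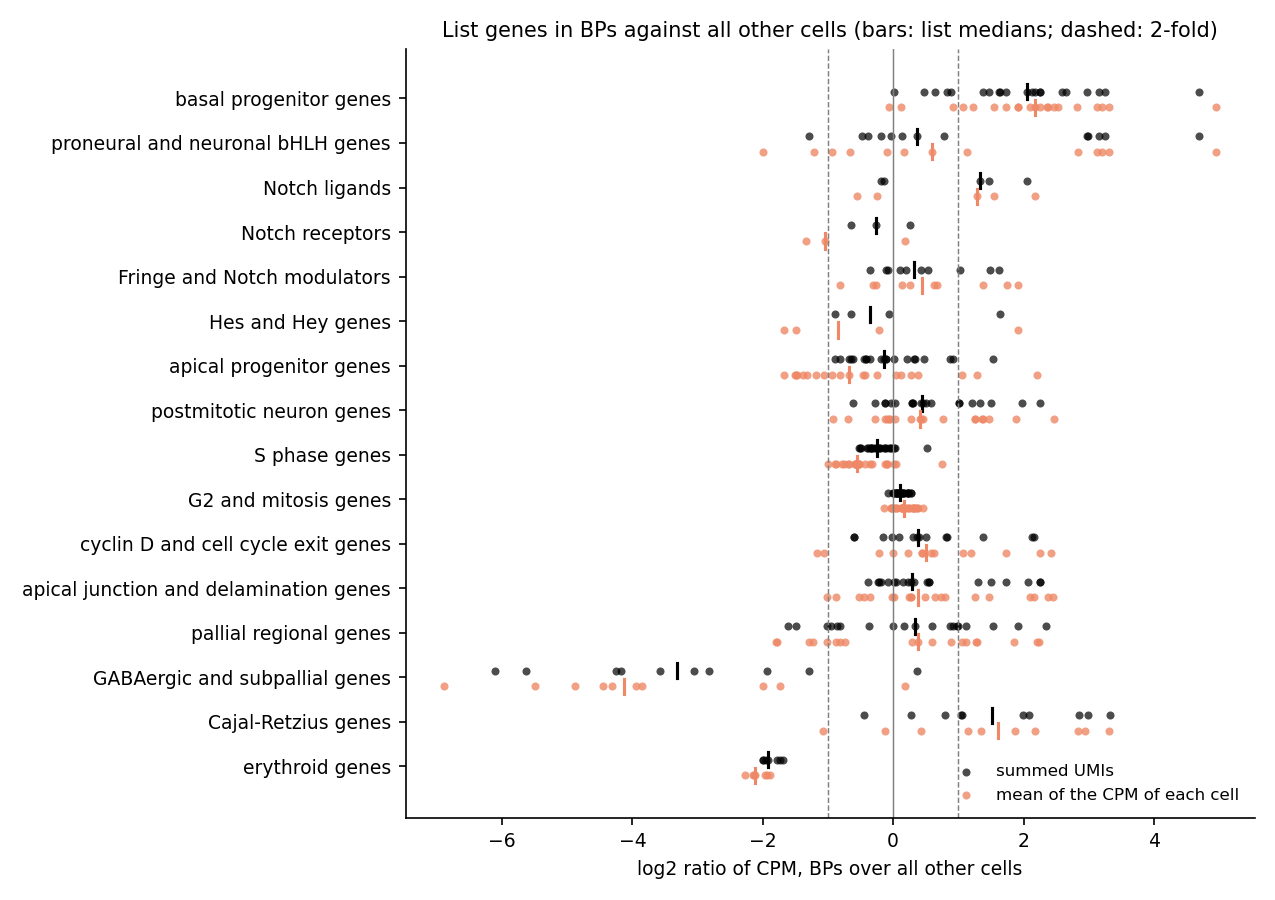
Each point is 1 gene past the level filter, placed by its log2 ratio of CPM in BPs over all other cells (horizontal axis) and by its gene list (vertical axis), from summed UMIs (black) and from the mean of the CPM of each cell (orange). Short bars are list medians and dashed lines 2-fold; basal progenitor genes lie to the right, GABAergic and erythroid genes to the left, and the apical progenitor list moves left when cells are weighted equally.

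The Notch pathway was divided between its members in BPs. Of 5 ligand genes past the filter 3 were higher and none lower, beside 2.28% and 1.38% of all genes. *Dll3*, a ligand that acts inside its own cell, was 4.14-fold higher (3.83 to 4.47), *Dll1*, the main activating ligand of neurogenesis, 2.76-fold (2.60 to 2.92), and *Dner* 2.53-fold, while *Jag1* (0.910) and *Dlk1* (0.880) stayed within 2-fold. No receptor passed 2-fold on summed UMIs, with *Notch1* at 1.20, *Notch2* at 0.642 and *Notch3* at 0.830 times the level in other cells. With each cell weighted equally *Notch2* (0.394) and *Notch3* (0.483) were lower. Among modulators, the fringe glycosyltransferase *Mfng* was 3.07-fold higher, *Numbl*, an inhibitor of Notch, 2.79-fold and the coactivator *Maml3* 2.04-fold. *Maml3* fell below 2-fold, to log2 ratios of 0.91 and 0.93, with a limit of 1 *Eomes* UMI and without the condition on *Trp73*, *Dlx1* and *Dlx2*. Of the Hes and Hey repressors, *Hes6*, which counteracts *Hes1*, was 3.12-fold higher (3.02 to 3.23), whereas *Hes1* (0.540) and *Hes5* (0.641), the targets of Notch in APs, were within 2-fold on summed UMIs and lower with cells weighted equally (0.312 and 0.357).

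Of 13 bHLH and Id genes past the filter 5 were higher and 1 lower, beside 2.28% and 1.38% of all genes. The higher ones were *Neurog1*, *Neurod1*, *Neurod4*, *Nhlh1* and *Nhlh2*, named above. Weighting cells equally, 7 of 14 were higher and 2 lower, beside 3.57% and 3.61% of all genes. *Bhlhe22* and *Id2* were added to the higher ones and *Id3* to the lower. *Id2*, an inhibitor of bHLH dimers, was at 1.72 times the level of other cells on summed UMIs (2.19 with cells weighted equally), *Id1* at 0.718 (0.63), *Id3* at 0.762 (0.433) and *Id4* at 0.880 (0.519).

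On summed UMIs none of the 25 S phase genes and none of the 25 G2 and mitosis genes passed 2-fold against the rest of the vesicle in either direction, with median log2 ratios of -0.24 and 0.11. *Gins2* (0.498) was the 1 S phase gene lower with cells weighted equally, where 3.61% of all genes were lower and 3.57% higher. Of 14 cyclin D and cell cycle exit genes, 3 were higher and none lower on summed UMIs, beside 2.28% and 1.38% of all genes. With cells weighted equally 5 of 15 were higher and 3 lower. The 3 higher on summed UMIs were *Gadd45a* (4.48-fold), *Gadd45g* and *Btg2* (2.61-fold), the last an antiproliferative gene that marks progenitors about to make neurons. *Cdkn1c*, the inhibitor p57, was 1.76-fold higher on summed UMIs (524 CPM in BPs) and 2.09-fold with cells weighted equally, and *Cdkn1b*, the inhibitor p27, 1.76-fold and 2.29-fold. The 3 genes lower with cells weighted equally were *Ccnd3* (0.443), its partner kinase *Cdk6* (0.479) and *Cdkn1a* (0.291), the inhibitor p21, which stayed under the filter on summed UMIs. *Ccnd1* (0.897) and *Ccnd2* (1.42) stayed within 2-fold.

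Some genes of delamination and migration were higher in BPs. Of 20 genes of the apical junction and delamination list past the filter 6 were higher and none lower, beside 2.28% and 1.38% of all genes. Besides *Insm1*, they were *Rnd2*, a small GTPase of migrating neurons (4.74-fold), the Snail-family repressors *Scrt2* (4.21-fold) and *Scrt1* (2.46-fold), *Akna*, a centrosomal protein of delaminating cells (3.30-fold), and *Dcx*, a microtubule protein of young neurons (2.83-fold). The junction genes proper did not pass 2-fold: *Cdh2* (N-cadherin) was at 1.03, *Prom1* at 1.24 and *Crb2* at 0.763 times the level of other cells. *Crb2* was lower with cells weighted equally (0.497).

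AP genes were close to the level of other cells on summed UMIs, with 1 of 21 higher and none lower (median log2 ratio -0.15). The higher one was *Emx1* (2.91-fold), a pallial regional gene. With cells weighted equally 8 of 22 were lower and 3 higher, beside 3.61% and 3.57% of all genes. Of 20 postmitotic neuron genes past the filter 7 were higher and none lower on summed UMIs, beside 2.28% and 1.38% of all genes. Among them, the neuronal tubulin *Tubb3* was at 999 CPM (2.51-fold) and *Tbr1*, the T-box factor of pallial neurons, at 68.3 CPM (3.95-fold).

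The genes with the lowest ratios were mostly subpallial. The gate required *Dlx1* and *Dlx2* to be absent, so that 9 of 10 GABAergic and subpallial genes being lower is given for description. *Dlx6os1* was at 0.0145, *Sp9* at 0.0202, *Dlx5* at 0.0523, *Gad2*, an enzyme of GABA synthesis, at 0.0553, the neurexin *Nrxn3* at 0.0812, *Sfta3-ps* at 0.0834, *Isl1* at 0.0839, *Nkx2-1* at 0.120, *Msx1*, a gene of the dorsal midline, at 0.14 and *Gsx2* at 0.141 times the level in other cells. By the mean of each cell's CPM these ratios lay between 0.00844 for *Dlx6os1* and 0.0856 for *Msx1*, and that of *Gsx2* was 0.0648. Without the condition on *Trp73*, *Dlx1* and *Dlx2*, the log2 ratio of *Dlx5* moved from -4.26 to -2.45, that of *Gad2* from -4.18 to -2.25 and that of *Gsx2* from -2.82 to -1.54, all still at least 2-fold lower. *Ebf1*, the one list gene that was not lower, is also a gene of migrating neurons.

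Regional genes differed from other cells and among BPs. *Lhx9*, a LIM-homeobox gene of early pallial neurons, was 5.10-fold higher than in other cells (4.82 to 5.41), *Dbx1* 3.79-fold, *Emx1* 2.91-fold (4.62-fold with cells weighted equally) and *Nr2f2*, a gene of caudal and ventral identity, 2.17-fold. The signalling genes of the rostral midline *Fgf17* (0.325) and *Fgf8* (0.356) and their target *Sp8* (0.496) were lower. These counts, 4 higher and 3 lower of 19, stood against 2.28% and 1.38% over all genes. Few cells carried the *Fgf* genes, 10 BPs holding 92.3% of the 104 UMIs of *Fgf8* and 83.4% of the 157 of *Fgf17*. With cells weighted equally 7 of 19 were higher, *Lhx2* (2.44), *Dmrta1* (2.42) and *Dmrta2* (2.08) being added, and 5 lower, with *Zic1* (0.497) and *Lmx1a* (0.426). *Lhx9* was seen in 375 BPs, of which 67.7% (62.7 to 72.4, exact binomial) also had *Tbr1*, against 13.0% (9.15 to 17.8) of the 253 BPs without it, at median depths of 9611 and 10996 UMIs. *Dbx1* showed the reverse: 6.13% of BPs with *Lhx9* held it and 26.5% of those without. All 3 genes also changed along the differentiation axis described below. From the AP side over the middle to the neuron side, *Lhx9* was seen in 31.9%, 62.2% and 85.2% of BPs. *Tbr1* was seen in 23.3%, 38.8% and 75.1%, and *Dbx1* in 31.0%, 8.13% and 3.83%. These shares were not compared at an equal place on the axis. *Lmx1a*, a gene of the cortical hem, was seen in 40 BPs, 75.0% of which held *Wnt8b* against 12.8% of other BPs, but the 40 were deeper (22609.5 against 9743.5 UMIs).

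Genes often used for Cajal-Retzius cells were mostly higher in BPs than in other cells, although *Trp73* was absent by rule. Of 10 past the filter 7 were higher and none lower, beside 2.28% and 1.38% of all genes. Among them were *Ebf2* and *Ebf3*, *Tmem163* (4.25-fold), *Lhx1* (3.96-fold) and *Lhx5* (2.09-fold). Against the pallial neurons described below, 4 of 10 were higher and 4 lower, beside 7.83% and 7.74% of all genes. *Reln*, which encodes the protein Cajal-Retzius cells secrete, was not among the genes higher than in other cells (0.734) and was lower with cells weighted equally (0.475). *Calb2* was 2.07-fold higher on summed UMIs and 0.919 of the other cells' level with cells weighted equally. In BPs 1 cell held 34.9% and 10 cells held 83.7% of its 258 UMIs. Without cells of over 30000 UMIs its log2 ratio went from 1.05 to -0.17. Among BPs, *Lhx1* was seen in 31.1% of cells without *Emx1* and 11.8% of cells with it, at median depths of 8532 and 11282.5 UMIs.

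To place BPs between their source and their product, they were compared with 759 pallial APs (*Pax6*, *Hes5* and *Emx1* or *Emx2* present, *Eomes*, *Gsx2* and *Lmx1a* absent; median 19921 UMIs) and 314 pallial neurons (*Tbr1* and *Stmn2* present, *Eomes* and *Gad1* or *Gad2* absent; median 7230 UMIs). APs and neurons were, like BPs, selected on measured genes, with *Eomes* absent in both. Ratios to them, the place of BPs between them and the genes higher than in both thus describe these gates and test nothing. Against APs, 369 of 9101 genes (4.05%) were at least 2-fold higher in BPs and 55 (0.604%) lower. Against neurons, 725 of 9264 (7.83%) were higher and 717 (7.74%) lower. Scrublet marked 13.1% of these neurons and 5.67% of the APs. Without the marked cells 1087 of 9227 genes were higher than in neurons and 879 lower, so that ratios to neurons depend on these cells. The median log2 ratio over all genes was -0.04 against APs and 0.11 against neurons. With cells weighted equally the genes lower than in APs numbered 490 (5.41%) in place of 55, and those higher 603 (6.66%), against 752 (8.29%) lower and 820 (9.04%) higher than in neurons.

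BPs held most neuron genes above the level of APs and below that of neurons. Relative to APs, 14 of 20 postmitotic neuron genes were higher, while of 17 AP genes 1, *Hes1* (0.473), was lower on summed UMIs and 10 with cells weighted equally. Relative to neurons, 13 of 19 neuron genes were lower and 10 of 22 AP genes higher. *Dcx*, for example, was 17.8-fold higher than in APs and 0.286 of the neuron level, and *Slc17a6*, the vesicular glutamate transporter, was 75.5-fold higher and 0.448 (0.665 with cells weighted equally, within 2-fold).

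Division genes were mostly higher in BPs than in neurons and closer to their level in APs. All 25 G2 and mitosis genes were at least 2-fold higher than in neurons, 13 of 25 S phase genes were higher, and none of either list passed 2-fold against APs on summed UMIs. Weighting cells equally, 22 of 25 S phase genes were higher than in neurons, and 4 were lower than in APs, *Mcm3* (0.423), *Ccne1* (0.454), *Cdt1* (0.471) and *Chaf1b* (0.491). *Mki67* was at 3.28 and *Ube2c* at 3.38 times the neuron level, against 0.952 and 1.04 times that of APs. All 3 Notch receptors past the filter were likewise higher than in neurons, *Notch1* 4.61-fold, *Notch3* 3.08-fold and *Notch2* 2.41-fold.

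Of 8771 genes past the filter in both comparisons, 54 (0.616%) were at least 2-fold higher in BPs than in APs and than in neurons. The 12 with the highest smaller ratio were *Neurod4* (82.5-fold over APs and 62.2-fold over neurons), *Prmt8* (29.0 and 29.8), *Gmnc* (24.3 and 29.0), *Tspan11* (8.71 and 11.4), *Neurog1* (8.11 and 28.9), *Rassf4* (6.05 and 13.3), *Galnt18* (6.01 and 5.94), *Rbfox3* (19.4 and 5.84), *Lypd6b* (10.9 and 5.60), *Igsf8* (6.88 and 5.26), *Gadd45g* (11.97 and 5.22) and *Abcd2* (4.98 and 4.53). The ratio of *Neurod4* to neurons rested on 1 UMI in neurons, with an interval of 11.1 to 2468, so that its place among the 12 is not set. *Tspan11* had 5 UMIs in neurons, *Gmnc* 6 and *Rassf4* 7. *Neurod4* was seen in 0.659% of APs and 0.318% of neurons, shares no higher than the 0.717% of the blood and vessel gate. *Gmnc*, a regulator of multiciliated cells that is also transcribed in the cortical hem, belonged to few cells: 46 members held its 693 UMIs, 10 of them 66.5% and 1 cell 21.5%. The AP gate left out cells with *Lmx1a*, a hem gene, and against all other cells *Gmnc* was 2.46-fold higher (2.26 to 2.66), seen in 7.32% of BPs and 4.54% of other cells. That log2 ratio of 1.30 fell to 0.91 after thinning and was 3.04 without the condition on *Trp73*, *Dlx1* and *Dlx2*. *Dll1* was also higher than in both (4.08 and 2.19). On summed UMIs *Dll3* was 21.3-fold higher than in APs and 1.64-fold than in neurons. With cells weighted equally its ratio to neurons was 2.19, past 2-fold.

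**Figure D3:**
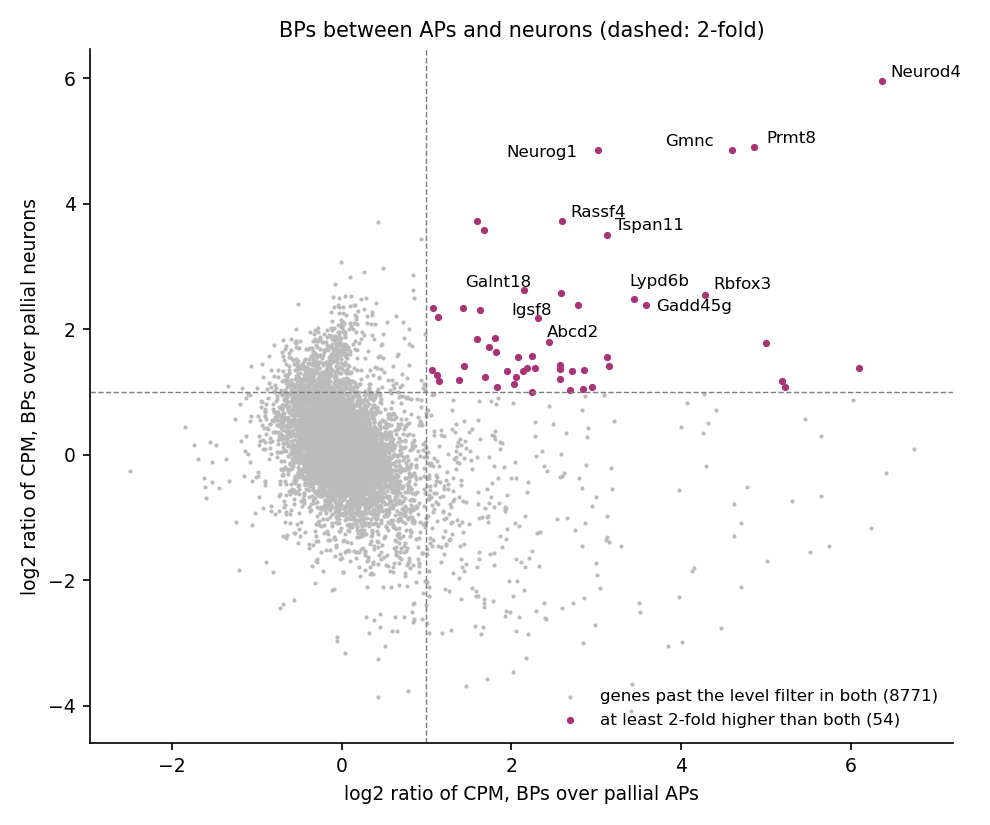
Each point is 1 gene past the level filter in both comparisons, by its log2 ratio of CPM in BPs over pallial APs (horizontal axis) and over pallial neurons (vertical axis). The 54 coloured genes are at least 2-fold higher than in both (dashed lines), and the 12 with the highest smaller ratio are named; the place of *Neurod4* on the vertical axis rests on 1 UMI in neurons.

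BPs also differed among themselves. Each cell was placed by log2((N + 1)/(A + 1)), where N is its UMIs of 10 neuron genes and A those of 8 AP genes, and the members were divided by rank into an AP side (210 cells), a middle (209) and a neuron side (209). These are ranges of a score and not cell types, and the 18 axis genes were left out. The AP side held 64.9% of the members' UMIs, and Scrublet marked 21.4% of it, 12.9% of the middle and 2.87% of the neuron side. The *Eomes* limit is a fixed count of UMIs, which deeper cells can pass at a lower CPM. With every cell thinned to the same depth, *Eomes* was seen in 43.3% of the AP side, 75.6% of the middle and 85.2% of the neuron side. Summed results for BPs are thus led by the part in which *Eomes* was seen least often at equal depth. Between the ends, 821 of 9117 genes (9.01%) were at least 2-fold higher on the neuron side and 1178 (12.9%) lower, with a median log2 ratio of -0.11. Without cells of over 30000 UMIs the lower genes numbered 773, and with cells weighted equally 691 of 8968 genes were higher and 1030 lower.

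*Neurod4*, *Gadd45g*, *Hes6* and *Dll1* were highest in the middle. *Gadd45g* ran from 326 CPM on the AP side to 888 in the middle and 542 on the neuron side, *Hes6* from 231 to 625 and 362, and *Dll1* from 99.6 to 184 and 93.2. *Neurod4* was at 11.0, 53.7 and 23.3 CPM, with counting intervals that did not overlap between the middle and either end. With cells weighted equally the AP side came closer (24.6, 56.6 and 22.7 CPM for *Neurod4*) and the middle kept the highest value for these 4 genes. *Neurog2* was at 257, 539 and 322 CPM, but every member had to hold at least 1 of its UMIs, which sets a higher least CPM in the shallower parts, so that these values are a description only.

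A further set was highest on the neuron side. *Neurod1* went from 45.2 to 196 and 311 CPM across the axis, *Dll3* from 23.6 to 126 and 197, *Tbr1* from 12.9 to 85.6 and 262, *Lhx9* from 30.8 to 208 and 437, and *Slc17a6* from 17.6 to 137 and 330. *Dll1* and *Dll3* thus had their highest level in different parts of the axis. The 10 genes with the highest ratio of the neuron to the AP side included *Calb2*, *Nxph1*, *Samd3*, *Ndufa4l2*, *Epha10*, *Chgb*, *Nxph4* and *Ripor2*. *Nxph1*, a neurexin ligand, was at 3.11 CPM on the AP side and 152 on the neuron side. It was seen in 87 cells, 10 of which held 49.8% of its 406 UMIs.

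Of 14 AP genes that did not set the axis 8 were lower on the neuron side and 2, *Lin28a* and *Emx1*, higher. All 3 Notch receptors were lower on the neuron side, *Notch1* passing from 173 to 120 and 37.2 CPM, and so were 20 of 25 S phase genes, *Mcm3* passing from 127 to 56.0 and 22.8. On summed UMIs 2 of 25 G2 and mitosis genes, *Mki67* and *Bub1b*, were lower, beside 12.9% of all genes. With cells weighted equally 11 of the 25 were lower, beside 1030 of 8968 genes. Their list summed to 5047, 5909 and 3272 CPM, highest in the middle. *Id3* passed from 341 to 57.8 and 12.9 CPM and *Pax6* from 182 to 63.8 and 28.8. Of cell cycle exit genes, *Cdkn1c* was at 323, 941 and 847 CPM (2.62-fold between the ends, and 1.57-fold with cells weighted equally) and *Gadd45a* at 25.6, 154 and 181, while *Ccnd1* was at 505, 474 and 210. The 10 genes with the lowest ratio were *Adamts18*, *Lpar1*, *Rreb1*, *Creb5*, *Plce1*, *Bmp6*, *Adamtsl1*, *Megf10*, *Trabd2b* and *Id3*. *Creb5* had 430 CPM on the AP side and 9.42 on the neuron side, and *Adamts18*, an extracellular protease, 46.8 and 0.496. Among BPs 10 cells held 33.1% of the 3464 UMIs of *Creb5* and 54.6% of the 366 of *Adamts18*. Without cells of over 30000 UMIs, their log2 ratios to other cells went from 0.26 to -1.09 and from 1.28 to 0.10.

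**Figure D4:**
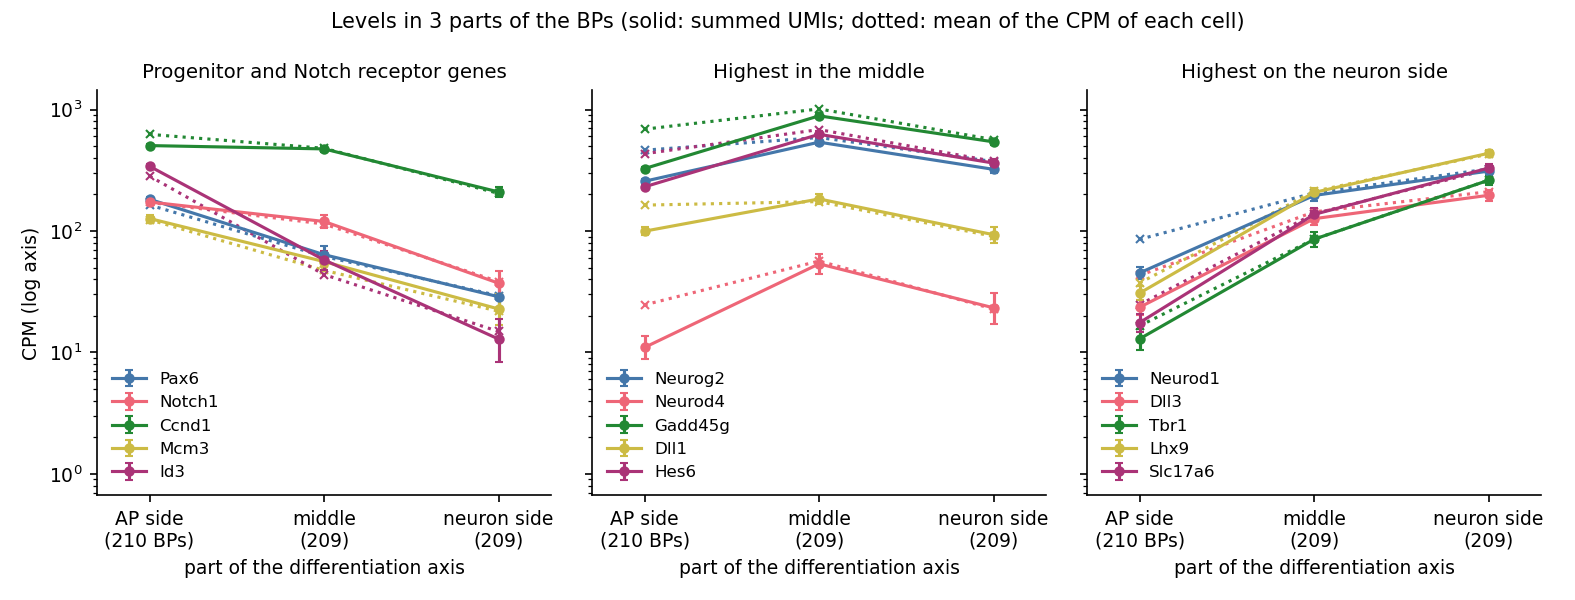
CPM (vertical log axis) in the AP-side, middle and neuron-side parts of the BPs (horizontal axis) for 5 genes per panel. Solid lines are summed UMIs with 95% Poisson intervals and dotted lines the mean of the CPM of each cell; the first set declines, the second peaks in the middle and the third increases (*Neurog2* was a gate gene).

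*Dbx1*, a homeobox gene of the ventral pallium and septum, was the regional gene of interest to the study. It was seen in 90 BPs or 14.3% (11.7 to 17.3), in 4.35% of other cells, 6.06% of APs and 0.955% of neurons, against 0.717% of the blood and vessel gate. After thinning every cell to 2500 UMIs the shares were 4.62% of BPs and 1.10% of other cells. Its summed level was 16.9 CPM in BPs and 4.46 in other cells, 3.79-fold higher (3.23 to 4.43). Along the axis 31.0%, 8.13% and 3.83% of BPs held it, and 8.57%, 2.39% and 2.87% after thinning, so that the deeper AP side had the highest share by both counts. *Pcdh8*, a protocadherin, was seen in 36 BPs or 5.73% (4.05 to 7.85), against 8.90% of other cells, 11.2% of APs, 11.1% of neurons and 2.51% of the blood and vessel gate. After thinning 0.318% of BPs held it, no more than the 0.358% of the blood and vessel gate, so that expression above background was not detectable at that depth. Its level was 4.62 CPM, 0.661 of that in other cells (0.495 to 0.866), and 9 BPs held both genes. *Pcdh8* was seen in 10.0% (4.68 to 18.1) of the 90 BPs with *Dbx1* and 5.02% (3.33 to 7.22) of the 538 without, at median depths of 14678.5 and 9617.5 UMIs, intervals that overlap. The other adhesion genes of the study, *Pcdh9* (1.32), *Pcdh19* (0.995) and *Cdh2*, and the neuronal gene *Nr4a2* (0.988) were near the level of other cells on summed UMIs. Thinning to 2500 UMIs took the log2 ratios of *Pcdh19* and *Nr4a2* to -0.69 and -0.86.

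The 44 BPs with at least 2 *Dbx1* UMIs (median 15286 UMIs, 34 of them on the AP side) were set beside the 538 with none (median 9617.5). Scrublet marked 20.5% of the former and 11.3% of the latter, and the part of doublets in the values below was not tested. The 44 cells held 5422 to 162281 UMIs each. Ratios between these groups are from summed UMIs, which deep cells lead, and equal weight per cell was not tested here. Of 9043 genes 90 (0.995%) were at least 2-fold higher and 218 (2.41%) lower. *Mctp1*, a calcium-binding membrane protein, was 9.91-fold higher (7.75 to 12.7) and 8.40-fold within the AP side alone, where median depths were 22863 and 24377 UMIs. The 9 next highest were *Irs4* (5.33-fold), *Ptx3* (5.14-fold), *Nell1* (4.83-fold), *Wnt4* (4.52-fold), *Veph1* (4.50-fold), *S100a11* (4.17-fold), *Bmper* (4.10-fold), *Plce1* (3.96-fold) and *Ntn1* (3.95-fold), and within the AP side their ratios lay between 2.67 and 10.6. *Pcdh8*, under the level filter, was 3.78-fold higher in BPs with at least 2 *Dbx1* UMIs (2.04 to 6.79), on 19 and 35 UMIs, and 4.37-fold within the AP side. Of 17 pallial regional genes 6 were lower and none higher, and within the AP side 7 of 18 were lower and none higher (1.24% of all genes were lower there and 0.942% higher). *Emx1* was at 0.256 (0.323 within the AP side), *Dmrt3* at 0.293 (0.179), *Wnt8b* at 0.272 (0.190), *Zic1* at 0.309 (0.271), *Lmx1a* at 0.415 (0.279) and *Lhx9* at 0.102 (0.256), while *Emx2* (0.527, 0.409 within the AP side), *Dmrta1* (0.870) and *Dmrta2* (0.822) were within 2-fold over all members. *Gmnc*, not on that list, was at 0.0640 (0.0607), but 10 BPs held 66.5% of its UMIs. By cells, *Dbx1* was seen in 10.9% (3.62 to 23.6) of the 46 BPs with *Gmnc*. Of BPs without *Gmnc* 14.6% (11.8 to 17.7) held it, an interval that overlaps. *Nr2f1* (1.52), *Nr2f2* (1.44) and *Lhx2* (0.819) were within 2-fold.

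RNA of other cell types was low in BPs apart from haemoglobin. All 7 erythroid genes past the filter were lower than in other cells, their list summing to 3286 CPM against 12465, yet every member held some, *Hbb-y* being the most abundant at 1825 CPM. The summed level went from 1724 CPM on the AP side to 5006 in the middle and 7427 on the neuron side, in the order in which depth fell. Pallial APs held 1757 CPM and pallial neurons 6498, and against APs none of 7 genes passed 2-fold on summed UMIs, while 5 were higher in BPs with cells weighted equally. The list gene *Alas2* and the membrane gene *Slc4a1* stayed under the filter, and the part of free RNA in this order was not tested. Mesenchyme genes summed to 33.2 CPM against 136 (2 of 2 past the filter lower), and 10 BPs held 74.4% of their 395 UMIs. Without the cells marked by Scrublet the log2 ratio of *Col3a1* went from -1.90 to -4.51 and that of *Col1a2* from -1.96 to -3.33. Endothelial genes summed to 3.19 CPM against 23.7, with 2 of 8 at 0 in BPs. Macrophage genes summed to 13.6 CPM against 30.8, with *C1qb* the most abundant at 3.78 CPM, and 1 cell held 132 of their 162 UMIs in BPs. No endothelial or macrophage gene passed the filter.

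The same gate applied to the septal explants, a library the rule did not use, held 464 of 5775 cells (median 11756.5 UMIs, 2.16% marked by Scrublet). There 335 of 7723 genes (4.34%) were at least 2-fold higher than in the other cells of that library and 365 (4.73%) lower. Of 209 genes higher in BPs of the vesicle 145 passed the filter in both libraries, and 136 of these were also at least 2-fold higher in the explants (93.8% of 145, and 50% of the 272 explant genes that passed both filters). Of 127 lower genes 58 could be compared, 48 were lower too and 1 was higher. *Neurod4* was 27.8-fold higher in the explants, *Prmt8* 13.1-fold, *Ebf2* 9.13-fold and *Neurog1* 8.43-fold, beside ratios in the vesicle of 26.0, 14.0, 10.0 and 7.83. Leaving cells of over 30000 UMIs out of the vesicle took the log2 ratio of *Neurod4* from 4.70 to 5.29 and that of *Neurog1* from 2.97 to 3.59. Of 22 basal progenitor genes past the filter there, 20 were at least 2-fold higher and none lower.

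On summed UMIs 11 of 20 AP genes were lower and 2 higher in the explants, against none lower and 1 higher in the vesicle. With cells weighted equally the counts came closer, 12 of 20 lower and 2 higher in the explants and 8 of 22 lower and 3 higher in the vesicle. Over all genes of the explants 5.3% were then lower and 4.15% higher. The libraries also differed in depth, and members over 30000 UMIs held 6.05% of BP UMIs there against 51.2%. Of 10 Cajal-Retzius genes past the filter in each library, 7 were higher in the vesicle and 6 in the explants on summed UMIs, and none was lower. Single genes differed: *Lhx1* of this list was 3.96-fold higher in BPs of the vesicle and at 0.734 (0.582 to 0.915) in the explants. *Ebf3* of the same list was 7.23-fold and 2.83-fold higher, and the regional gene *Dbx1* was at 3.79-fold and 0.788 (0.609 to 1.01). The explants include embryos with a Dbx1Cre allele, whose part in the last value was not tested. Kits, stages, genotypes and tissue differ together between the libraries and cannot be told apart.

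**Figure D5:**
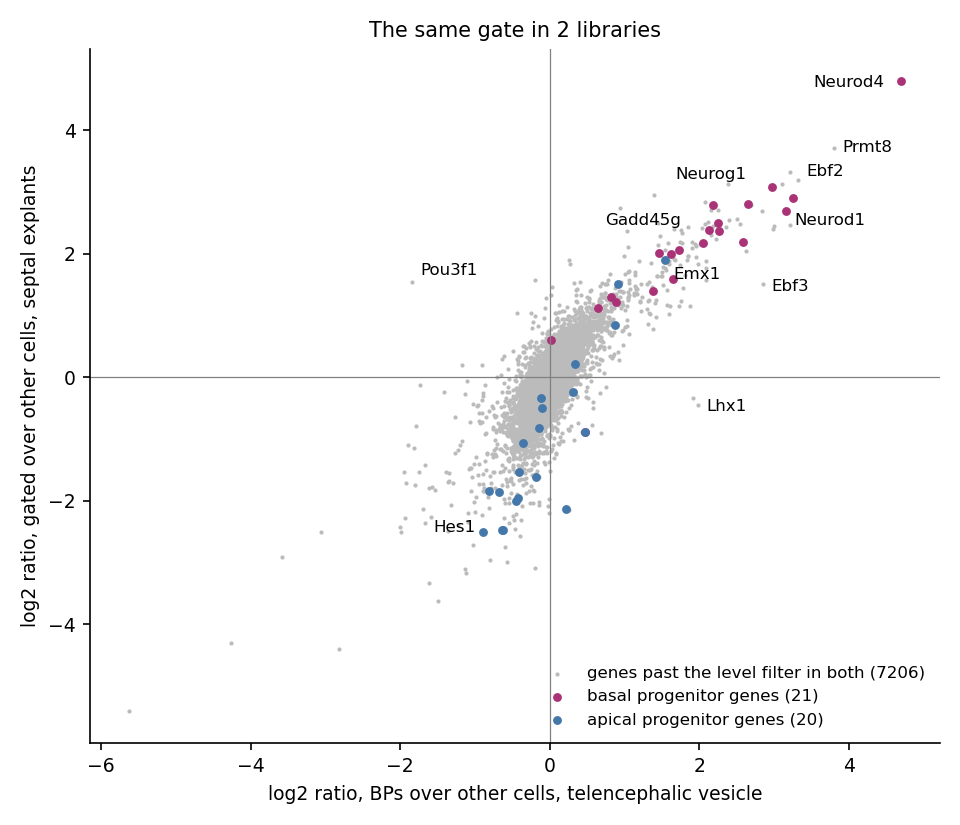
Each point is 1 of 7206 genes past the level filter in both libraries, by its log2 ratio of BPs to other cells in the telencephalic vesicle (horizontal axis) and of gated to other cells in the septal explants (vertical axis). Basal progenitor genes lie along the diagonal at the upper right, while apical progenitor genes lie lower on the vertical than on the horizontal axis; *Pou3f1* and *Lhx1* lie apart.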

How the data were processed

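The authors deposited UMI counts per gene and barcode, made with Cell Ranger 7.1.0 for the telencephalic vesicle (14283 barcodes, 32286 features, 194821794 UMIs, median 8503) and 2.1.1 for the septal explants (5827 barcodes, 83103280 UMIs, median 12722), both on mm10 per the submitters' processing notes. About 20000 and 10000 cells were loaded with kits v3.1 and v2. The libraries share 1 barcode sequence. Cells with at least 2500 UMIs and a mitochondrial share under 6% were kept (11498 and 5775). With 1 library per tissue no test was run: counts were summed per group, scaled to CPM, and given with exact Poisson, exact conditional (ratio) or exact binomial (share) 95% intervals. Genes with a mean of at least 10 CPM were compared, without the gate genes, and called at 2-fold. Ratios against a group at 0 used a floor of 3 UMIs. Scrublet (scanpy 1.11.5) marked doublets at an expected 0.8% per 1000 barcodes, and they were kept in the main results. The comparison of summed counts was tested on simulated pooled counts with known fold changes and no differences between cells. Gates, axis, thinning and equal weighting were not tested in this way.

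Members, lists and tests were chosen with earlier results of these data known. Named genes were the gate and marker genes, the 20 highest and 10 lowest ratios to other cells, the 12 highest smaller ratios to APs and neurons, the 10 highest and 10 lowest along the axis, the 10 highest with *Dbx1*, the genes of the study, and up to 5 genes per list plus Notch, bHLH and cell cycle exit genes; *Ebf1*, *Slc17a6*, *Lmx1a* and the genes named as lower with *Dbx1* were added after their values were seen. A few genes that met these rules are not reported here. The neuron gate first set (*Tbr1* with *Neurod2* or *Neurod6*) held 5 cells and was replaced, after seeing this, by one with at least 3 *Stmn2* UMIs. Alternatives were other gate limits, level filters, depth limits, thinning to 2500 UMIs and equal weight per cell. Promoters are from RefSeq and gene positions from GENCODE M21. Intervals came from scipy 1.17.1, under Python 3.11.15.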

Additional observations from a re-analysis of the deposited data

Results flagged for a closer look

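*Pou3f1*, a POU factor of neural progenitors and neurons, was at least 2-fold different from other cells in opposite directions in the libraries: at 0.280 of the level of other cells in BPs of the telencephalic vesicle (0.238 to 0.327; 13.6 against 48.6 CPM) and 2.92-fold higher in the gated cells of the septal explants (2.56 to 3.33; 46.3 against 15.8 CPM). Each library is 1 sample, so the difference was not tested.

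The features of the telencephalic vesicle include the sequence LacZ, which no comparison used. It had 11 UMIs in 9 barcodes, above the 3 that a count of 0 allows, and 6 of the UMIs lay in BPs.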

How the results depend on the processing

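Over 15 summary results, 138 alternatives stayed within 1.5 times the main count or within its interval and 43 did not. Thinned to 2500 UMIs, with each cell's CPM averaged, and without cells of over 30000 UMIs (the last chosen after seeing the data), genes higher than in other cells numbered 350, 324 and 345 (209 in the main result), lower 377, 328 and 376 (127), higher than in APs 688, 603 and 609 (369), lower 620, 490 and 478 (55), higher than in both APs and neurons 110, 90 and 100 (54), and AP list genes lower 8, 8 and 9 (0; 1 without doublets). Of 137 named genes 31, 27 and 30 moved by over 1.5 times against other cells under these settings, and 11 without the negative genes. *Calb2* turned from a log2 ratio of 1.05 to -0.062, -0.12 and -0.17. Thinning took the share of BPs with *Dbx1* from 14.3% to 4.62% and with *Pcdh8* from 5.73% to 0.318% (3.90% without deep cells), and deep cells left out took axis genes lower from 1178 to 773. A filter of 50 CPM, which tests fewer genes, gave 88 higher and 28 lower than in other cells, 121 and 9 against APs, 240 and 286 against neurons, 24 against both, 307 and 333 along the axis, 47 shared with the explants, 10 basal progenitor genes and 4 Cajal-Retzius genes; a filter of 5 CPM gave 222 lower than in other cells and 92 lower than in APs. Against other neural cells alone 84 genes were lower. With 1 *Eomes* UMI, 26 were lower than in APs and 34 higher than in both; without the negative genes, 26 were lower than in APs. The neuron gate of 5 cells gave 2968 lower and 27 higher than in both. No paired analysis was possible because each tissue is 1 library.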
